A study of Mus musculus with 10 samples.

Results

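The glycolytic enzyme genes Hk1, Gpi1, Pfkm, Pfkp, Aldoa, Aldoc, Pgk1, Eno2, Ldha and Ldhb were followed in 10 inspiratory neurons of the mouse preBötzinger complex (preBötC), the brainstem site from which the breathing rhythm originates. They were chosen by name, and all 10 were found among the 55367 genes listed. Each neuron was recorded by whole-cell patch clamp in a slice from a pup of postnatal day 0 to 3, its contents were drawn into the pipette, and the RNA was sequenced as 1 library. Samples 5, 6 and 7 (P0, P3 and P3) were Dbx1-derived Type-1 neurons, and sample 1 (P0) was the 1 Type-2 neuron, also Dbx1-derived. These neurons came from Dbx1;Ai148 mice, in which Cre under the Dbx1 promoter switches on the calcium indicator GCaMP6f in cells of the Dbx1 lineage. Sample 4 (P3) was a Type-1 neuron, and samples 2, 3, 8, 9 and 10 (P2, P0, P0, P2 and P1) were of Unknown type; these 6 came from wild-type CD-1 mice, which carry no reporter, so their lineage is not known. Type-1 neurons activate early before the inspiratory burst and carry an A-type potassium current, Type-2 neurons activate later and carry a hyperpolarization-activated current, and Unknown neurons could be assigned to neither.

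Glycolysis splits glucose into pyruvate in the cytosol and yields ATP without oxygen. Hexokinase traps glucose in the cell, phosphofructokinase commits the sugar to the pathway, aldolase cleaves it, and phosphoglycerate kinase makes ATP. Enolase acts near the end of the pathway, and lactate dehydrogenase interconverts pyruvate and lactate. Several steps have isozymes that differ between cell types. In the brain Aldoc, also known as zebrin II, is strong in astrocytes and in some Purkinje neurons, whereas Aldoa is found in most cells; Eno2 is the neuronal enolase; and lactate dehydrogenase is built from the A subunit of Ldha, the major form in glycolytic tissue, and the B subunit of Ldhb.

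The isozymes of each pair are distinct enough in sequence to be counted apart. Over the 1089 aligned coding bases, Aldoa (chr7:126795234-126800751, minus strand, GRCm38) and Aldoc (chr11:78322968-78327781, plus strand) were 75.7% identical, with no identical run longer than 26 bases. Ldha (chr7:46841475-46855627, plus strand) and Ldhb (chr6:142490249-142507957, minus strand) were 71.7% identical over 996 aligned bases, with no run longer than 18. No stretch as long as the 150-base reads was shared in either pair. The opening 120 coding bases of the aldolases, and the first gap-free 120 coding bases of the lactate dehydrogenases, show this spacing of differences. They are 5′ to 3′ from GENCODE M21 transcripts, and capitals mark the bases that differ within a pair.
Aldoa: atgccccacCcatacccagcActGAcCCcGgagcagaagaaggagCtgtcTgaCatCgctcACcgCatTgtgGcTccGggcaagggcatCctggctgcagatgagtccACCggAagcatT
Aldoc: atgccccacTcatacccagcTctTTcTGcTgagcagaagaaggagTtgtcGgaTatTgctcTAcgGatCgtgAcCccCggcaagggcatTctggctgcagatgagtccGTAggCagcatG
Ldha: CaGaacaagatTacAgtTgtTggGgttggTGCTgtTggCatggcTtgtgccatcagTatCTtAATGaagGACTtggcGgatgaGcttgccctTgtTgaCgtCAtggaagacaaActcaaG
Ldhb: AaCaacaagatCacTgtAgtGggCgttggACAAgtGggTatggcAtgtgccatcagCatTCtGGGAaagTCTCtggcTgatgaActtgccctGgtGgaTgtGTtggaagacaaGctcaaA

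The libraries held 21392146 to 36629393 fragments on genes, and levels are given as FPKM, fragments per kilobase of gene per 1000000 fragments. The label of neuron was checked against 8 neuronal markers. Their mean log2(FPKM + 1) was 2.10 in sample 4, 4.51 in sample 1 and 6.38 to 7.58 elsewhere. In sample 1, 6 of the 8 were at 1 FPKM or more, with Nefl at 0.263 and Rbfox3 at 0.0241 FPKM. Of 10 astrocyte markers 4 were at 1 FPKM or more there, and its Slc1a3, at 41.1 FPKM, was the highest of any neuron. In sample 4 the 8 microglial markers, Csf1r and the C1q genes among them, summed to 14797 FPKM against 0.625 to 2030 FPKM elsewhere, and all 8 were at 1 FPKM or more. The markers of the oligodendrocyte lineage averaged 2.76 and 3.05 in samples 2 and 3 and 1.63 or less elsewhere, those of endothelium summed to 6.82 FPKM in sample 1 (all of it Tek) and at most 0.0204 FPKM elsewhere, and those of erythroid cells to at most 18.8 FPKM. RNA drawn in from a neighbouring cell cannot be told apart from the neuron's own. Samples 1 to 4 were the ones with the least cDNA after amplification, as the study's own quality control describes. Each neuron is 1 sample and the labels name no animal, so the values below are descriptions without a test, and the intervals cover counting error only because the fragments carry no molecular identifiers.

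The members were high and near universal, but uneven. All 10 had a fragment in every neuron, and 6 of 10 were at 1 FPKM or more in all 10 neurons, against 9.96% of the 12955 genes with a mean of at least 1 FPKM. The members' own means were 25.2 to 450 FPKM, and the share was not computed for genes of like level. Of the 100 member values, 5 fell below 1 FPKM: Hk1 in samples 2 and 4, Pfkm and Pfkp in sample 4, and Pgk1 in sample 1. All 5 were in samples 1 to 4, the libraries with the least cDNA, whose part in these low values was not tested. The members took 1.43% of all fragments in sample 1, between 0.582% and 0.977% in samples 2, 3 and 5 to 10, and 0.178% in sample 4. Sample 4 was the lowest neuron for 7 of the 10 members. The most abundant member was Aldoc in samples 2, 3, 8 and 9, Ldhb in samples 4, 6 and 10, Aldoa in samples 5 and 7, and Gpi1 in sample 1.

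**Figure D1:**
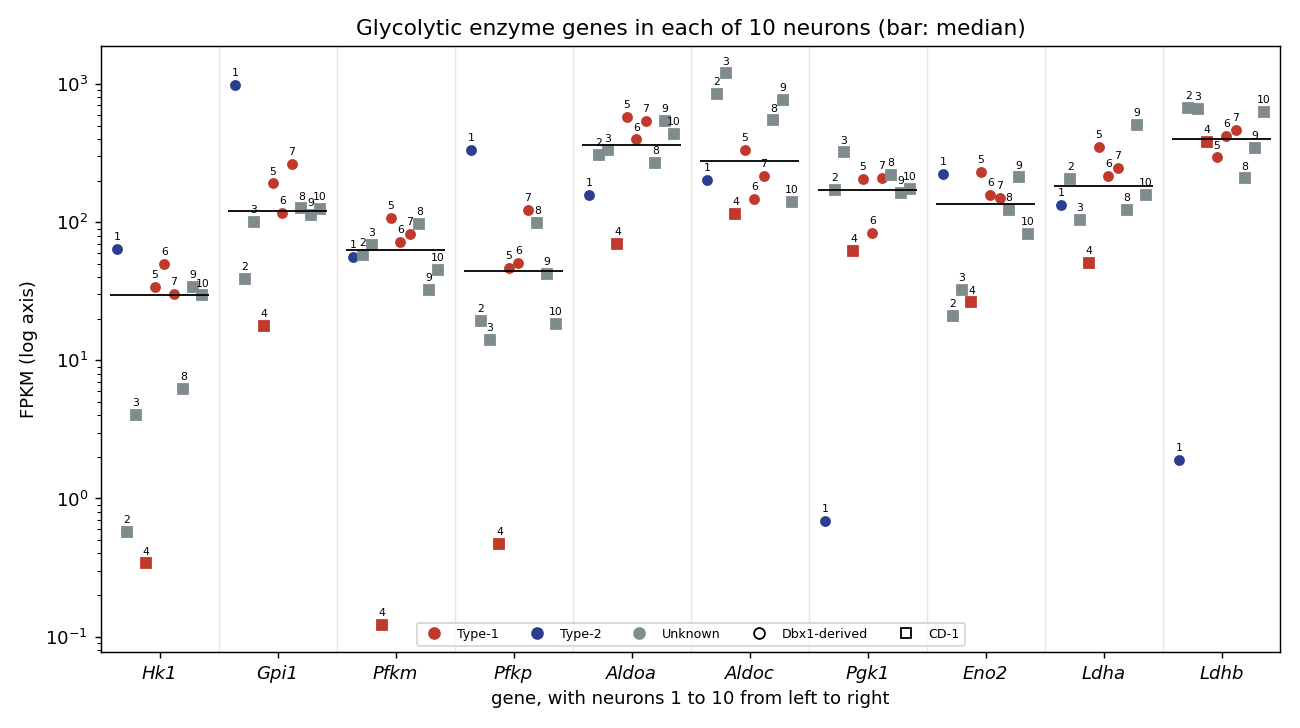
FPKM of the 10 glycolytic enzyme genes on a log axis, with neurons 1 to 10 from left to right within each gene, colour for the type, circles for Dbx1-derived and squares for CD-1 neurons, and a bar at the median. Sample 4 lies at the bottom of 7 genes, and sample 1 is highest for Gpi1 at 992 FPKM and lowest for Pgk1 and Ldhb at 0.687 and 1.91 FPKM.

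Hexokinase 1 (Hk1, chr10:62268855-62379908, minus strand), the main hexokinase of neurons, differed widely between neurons. It was at 63.6, 33.8, 49.7 and 30.4 FPKM in the Dbx1-derived samples 1, 5, 6 and 7. In the CD-1 samples 2, 3, 4, 8, 9 and 10 it was at 0.569, 4.03, 0.338, 6.20, 34.0 and 29.5 FPKM. The CD-1 neurons thus fell into 4 low values and 2 within or just under the Dbx1-derived range, and the groups overlapped. Of the 4 low neurons, samples 2, 3 and 8 were those with the highest astrocyte markers (mean log2(FPKM + 1) of 4.88, 5.41 and 5.14 over 10 genes, against 3.16 or less elsewhere). Over the 10 neurons, log2(FPKM + 1) of Hk1 had a Pearson r of -0.70 with the astrocyte list (Spearman rho = -0.70) and -0.87 with the microglial list (rho = -0.82). With the oligodendrocyte-lineage list r was -0.73 (rho = -0.61), and -0.91 without sample 4. Without the 2 neurons farthest from each list's median the r values were -0.72, -0.60 and -0.59. These points share the scaling to library totals, and the part of glial RNA in them was not tested.

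Glucose-6-phosphate isomerase (Gpi1, chr7:34201330-34230336, minus strand) stood out in sample 1. It is the only Type-2 library and among those with the least cDNA, so this is a value of that library alone. Sample 1 had 992 FPKM, from 136858 fragments, which made Gpi1 the gene of rank 23 in that library. The other 9 neurons had 39.1 FPKM in sample 2, 101 in sample 3, 17.8 in sample 4, 191 in sample 5, 117 in sample 6, 266 in sample 7, 126 in sample 8, 113 in sample 9 and 124 in sample 10. The Dbx1-derived samples 5 and 7 followed sample 1, and samples 2 and 4 were lowest.

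The phosphofructokinases varied in level and in balance. Pfkm (chr15:98092589-98132451, plus strand), the muscle form, was at 32.4 to 108 FPKM in 9 neurons and at 0.122 FPKM, from 12 fragments, in sample 4. Pfkp (chr13:6579768-6648777, minus strand), the platelet form that is also strong in brain, was at 332 FPKM in sample 1, 122 in sample 7 and 99.0 in sample 8. It was at 46.6, 50.7 and 41.9 FPKM in samples 5, 6 and 9, at 19.4, 13.96 and 18.5 FPKM in samples 2, 3 and 10, and at 0.469 FPKM, from 185 fragments, in sample 4. The 12 Pfkm fragments of sample 4 were 0.091% of the count in the library with the most, and the 185 Pfkp fragments were 0.194%. A spill of reads between libraries was not tested. Pfkp made up 85.6% of the summed Pfkp and Pfkm FPKM in sample 1 and 16.9% in sample 3, with samples 7, 8 and 9 at 59.9%, 50.3% and 56.4% and samples 2, 5, 6 and 10 at 25.1%, 30.2%, 41.5% and 29.1%. Sample 4 was at 79.3%, with an exact 95% binomial interval of 68.2% to 88.3% on its 197 fragments. Pfkp exceeded Pfkm in 5 of 10 neurons by FPKM and in 9 of 10 by fragments, its listed length being 13401 bases against 3340 for Pfkm. In sample 8 the 2 forms could not be ordered, with an interval of 49.7% to 50.9%.

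Aldolase gave the clearest isozyme balance. Aldoa was the steadier form: it was at 157, 306, 331 and 69.3 FPKM in samples 1 to 4 and at 575, 397, 544, 269, 543 and 438 FPKM in samples 5 to 10. Aldoc ranged further, at 203, 844, 1193 and 115 FPKM in samples 1 to 4 and 335, 147, 217, 545, 763 and 140 FPKM in samples 5 to 10. Aldoc was thus highest in the Unknown neurons 3, 2, 9 and 8, while the remaining Unknown neuron, sample 10, had the second lowest level of the 6 CD-1 neurons.

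Aldoc exceeded Aldoa in 6 of 10 neurons. Its share of the summed FPKM was 78.3% in sample 3, 73.4% in sample 2, 67.0% in sample 8, 62.4% in sample 4, 58.4% in sample 9 and 56.4% in sample 1. It was 36.8% in sample 5, 28.5% in sample 7, 27.1% in sample 6 and 24.1% in sample 10. Counting error moves none of these across 50%: the interval nearest to it was 55.8% to 57.0%, in sample 1. The 3 Dbx1-derived Type-1 neurons lay together between 27.1% and 36.8%, while the CD-1 Type-1 neuron lay among the higher values, and the Unknown neurons covered 24.1% to 78.3% (mean 60.3% ± 21.5, SD, n = 5). All 4 of samples 1 to 4 were over 50%, against 2 of the 6 later-numbered neurons, although the ranges (56.4% to 78.3% and 24.1% to 67.0%) overlapped.

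**Figure D2:**
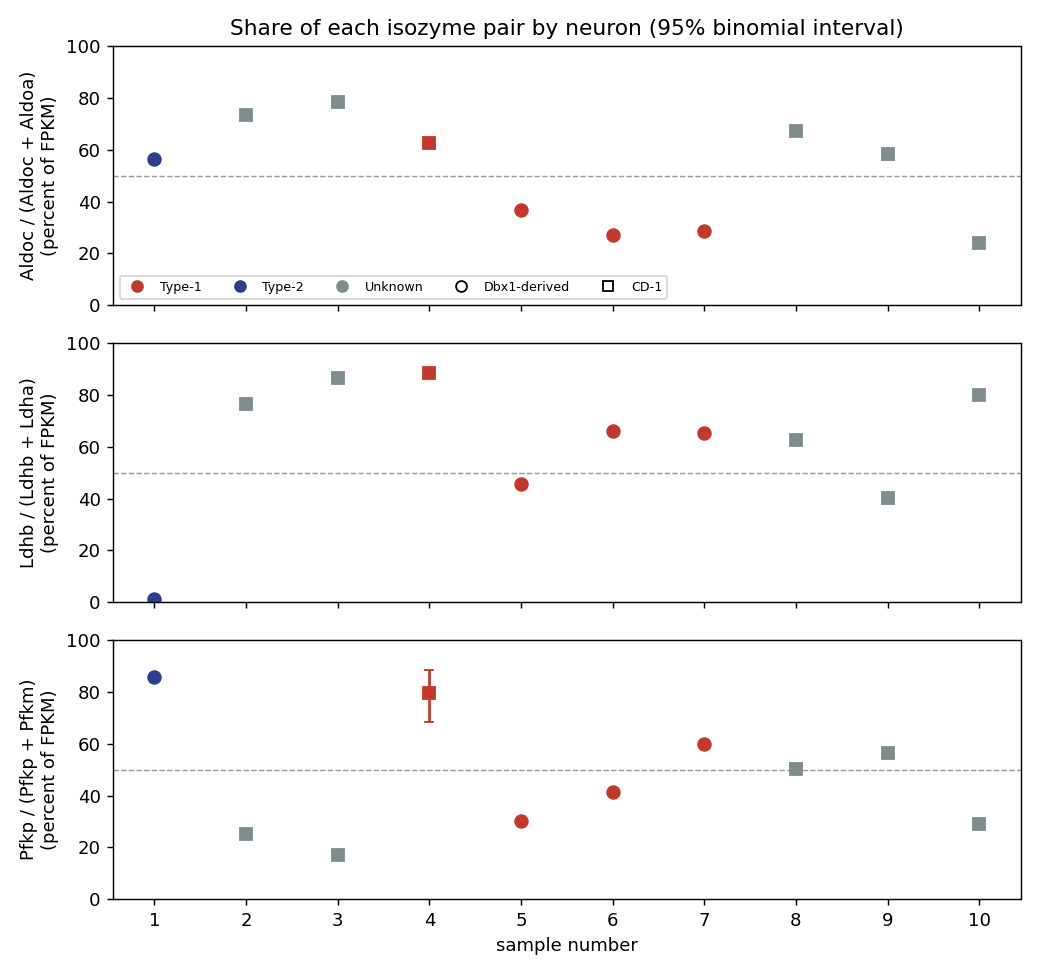
Share of Aldoc in aldolase A and C, of Ldhb in lactate dehydrogenase A and B, and of Pfkp in phosphofructokinase M and P, in percent of the summed FPKM, for each neuron with its exact 95% binomial interval; the dashed line is 50%. The Aldoc share ran from 24.1% to 78.3%, and the Ldhb share was over 40% in 9 neurons and 1.41% in sample 1.

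The Aldoc share moved with the astrocyte markers and with those of the oligodendrocyte lineage. Its Pearson r with their mean log2(FPKM + 1) was 0.83 over the 10 neurons (rho = 0.78), and 0.75 without samples 3 and 8, the 2 farthest from the list's median. Within samples 5 to 10 r was 0.66, but rho was only 0.26. With the oligodendrocyte-lineage list r was 0.73 (rho = 0.85), and 0.46 without samples 2 and 3, and within samples 5 to 10 it was 0.55 (rho = 0.83), so the relation was not particular to astrocyte markers. With the microglial list r was 0.41, falling to 0.16 without samples 2 and 4, and with the neuronal list it was -0.29. The level of Aldoc itself had an r of 0.60 (rho = 0.38) with the astrocyte list. That r was 0.79 without sample 9, but 0.33 (rho = -0.02) without samples 3 and 8 and 0.42 (rho = 0.03) within samples 5 to 10. With the oligodendrocyte-lineage list its r was 0.72 (rho = 0.67). This was 0.92 without sample 9, but 0.30 (rho = 0.36) without samples 2 and 3 and 0.44 (rho = 0.66) within samples 5 to 10. Aldoa, in contrast, rose and fell with the neuronal markers, at r = 0.97 (rho = 0.85) and 0.82 without samples 1 and 4, and at r = -0.35 with the astrocyte list. In the 3 neurons with the highest mean of the astrocyte list, samples 2, 3 and 8, at least 8 of the 10 markers were at 1 FPKM or more, and the list summed to 5293, 10239 and 3568 FPKM. Sample 4 had a sum of 6532 FPKM with 5 of the 10 at 1 FPKM or more. Most of these sums was Apoe and Fabp7. The fragments on mitochondrially encoded genes also moved with the Aldoc share: they were 7.37%, 7.83%, 9.85%, 5.05% and 7.78% of the library in samples 2, 3, 4, 8 and 9, whose Aldoc shares were 58.4% or more, and 0.253%, 0.219%, 1.25% and 0.347% in samples 5, 6, 7 and 10, whose shares were 36.8% or less. Sample 1, with a share of 56.4%, was at 1.13%. The neurons were grouped here by their Aldoc shares, after seeing the values, and no correlation with mitochondrial fragments was computed. The part of the markers and of the mitochondrial fragments in the Aldoc level was not tested.

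**Figure D3:**
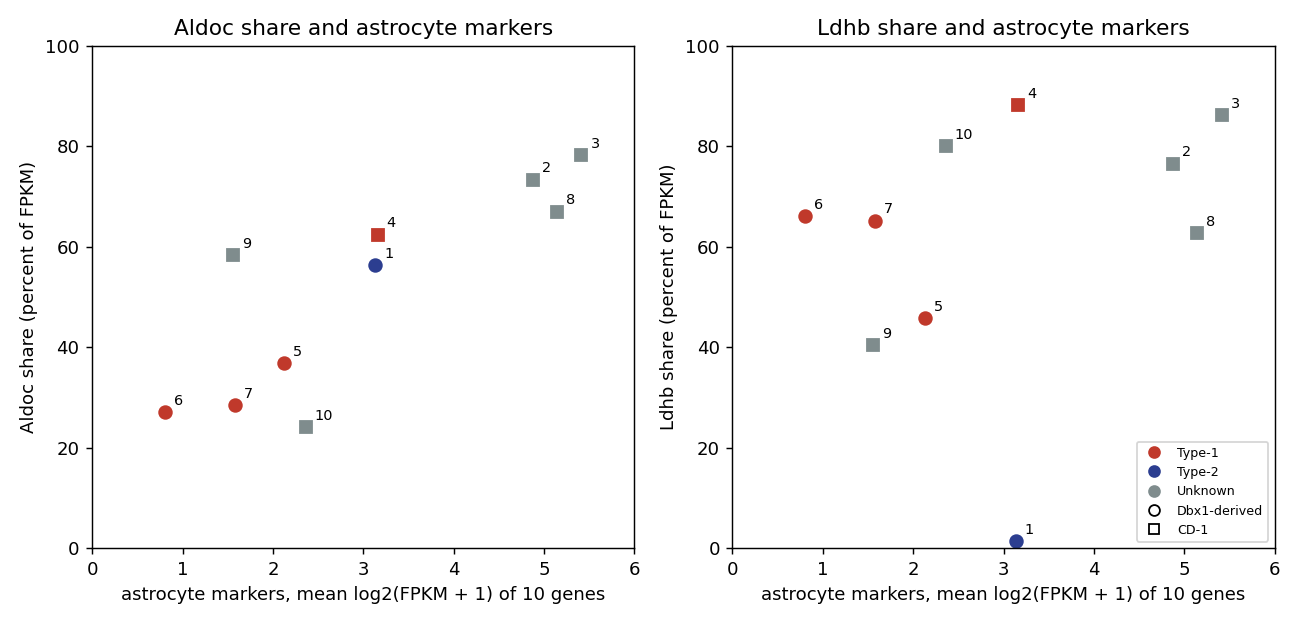
Aldoc share (left) and Ldhb share (right), in percent of FPKM, against the mean log2(FPKM + 1) of the 10 astrocyte markers, 1 numbered point per neuron. The Aldoc share rises with the list at r = 0.83, with sample 9 above the others of its astrocyte level at 58.4%; the Ldhb share has r = 0.27.

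Sample 9 departed from the relation to the astrocyte list. Its Aldoc level, 763 FPKM, was exceeded only in samples 3 and 2, with a share of 58.4%. Its astrocyte list, however, was at 1.56, next to samples 6 and 7, with 3 of 10 genes at 1 FPKM or more. In this neuron Slc1a2, Gfap and Gja1 were at 0, Aqp4 was at 0.00727 and Slc1a3 at 0.0265 FPKM, and Apoe was at 15.5 FPKM against 1562 or more in samples 2, 3 and 8. S100b was the exception, at 158 FPKM, the highest of any neuron. Its neuronal list, at 7.58, was the highest of the 10. Without sample 9 the r between Aldoc share and astrocyte list was 0.92. Sample 10 departed the other way: its share was the lowest, 24.1%, at an astrocyte list of 2.36, above that of samples 5, 6, 7 and 9.

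Phosphoglycerate kinase 1 (Pgk1, chrX:106187100-106203699, plus strand) was at 61.5 to 320 FPKM in 9 neurons, but sample 1 held 33 fragments, or 0.687 FPKM. That count was 0.148% of the largest count of any library, an exact 95% Poisson interval of 22.7 to 46.3 fragments. The next lowest neurons were sample 4 at 61.5 and sample 6 at 83.1 FPKM.

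The neuronal enolase Eno2 (chr6:124760053-124769673, minus strand) was at 222 FPKM in sample 1, 230, 158 and 150 in samples 5, 6 and 7, and 211, 122 and 82.4 in samples 9, 8 and 10. It was at 21.1, 32.6 and 26.3 FPKM in samples 2, 3 and 4, which formed a low set apart from the other 7. Its levels followed those of Hk1, with r = 0.91 over the 10 neurons and 0.89 without sample 4, but 0.34 within samples 5 to 10. The enolase of most tissues, Eno1, was at 343, 230 and 104 FPKM in samples 2, 3 and 4 against 120 to 577 FPKM elsewhere, so that of these 3 only sample 4 lay below the others. Eno1 has the near-identical copy Eno1b, so its own level is uncertain.

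Among the lactate dehydrogenases, Ldha was at 133, 205, 104 and 50.6 FPKM in samples 1 to 4 and 349, 215, 247, 123, 508 and 157 FPKM in samples 5 to 10. Ldhb was at 672, 656, 380, 294, 420, 464, 207, 344 and 632 FPKM in samples 2 to 10, and at 1.91 FPKM, from 64 fragments, in sample 1. The 64 fragments were 0.167% of the largest library's count. Ldhb exceeded Ldha in 7 of 10 neurons by FPKM and in 4 of 10 by fragments, its listed length being 1570 bases against 3310. Its share was 88.2%, 86.3%, 80.1% and 76.6% in samples 4, 3, 10 and 2, and 66.2%, 65.2% and 62.8% in samples 6, 7 and 8. It was 45.8% in sample 5, 40.4% in sample 9 and 1.41% (1.09% to 1.79%) in sample 1. By FPKM, sample 1 thus had 70.0 times as much Ldha as Ldhb, from 9451 and 64 fragments. It is the only Type-2 library, so this is a value of that library alone.

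The 2 balances did not run in parallel. The Ldhb share had r = 0.27 with the astrocyte list and 0.60 with the microglial list (0.51 without samples 2 and 4). With the neuronal list it had r = -0.10 (rho = -0.52) over all neurons and r = -0.93 (rho = -0.90) without samples 1 and 4. Within samples 5 to 10 r was -0.91 (rho = -0.83), so the size of r depended on whether samples 1 and 4 were included. Ldha itself had r = 0.84 (rho = 0.89) with the neuronal list, and 0.91 without samples 1 and 4. Ldhb had r = 0.33 (rho = -0.14), and -0.47 without samples 1 and 4. Sample 10 combined the lowest Aldoc share with a high Ldhb share of 80.1%, and sample 9 an Aldoc share above 50% with the second lowest Ldhb share.

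Of the 45 pairs of members, 5 had r above 0.8 and 12 had a negative r. Aldoa and Ldha kept r = 0.71 without sample 4 and 0.82 within samples 5 to 10. Gpi1 and Pfkp had r = 0.90, and 0.64 without samples 1 and 4. Pgk1 and Ldhb had the highest r, 0.93, which rested on sample 1: without samples 1 and 4 it was 0.06. Of 7530 genes that reached 1 FPKM in 5 or more neurons, those most like Aldoa were the tubulin gene Tubb4b (r = 0.99), Snrpn (0.99), which encodes a spliceosomal protein of neurons, and Rragb (0.97). Those most like Aldoc were Mgst1 (0.91), Paqr8 (0.89) and Gm14325 (0.88). For Ldha they were Ly6h, Fbxo31 and the heat-shock cognate gene Hspa8 (0.92 each), and for Ldhb Swi5 (1.00), Ndufa12 and Chchd2 (0.99 each), the last 2 of which encode mitochondrial proteins. In sample 1 the 3 genes like Ldhb were at 0.118, 0.238 and 1.13 FPKM, so the low Ldhb there weighs on their r. The like genes of all 4 members were picked as the highest r among 7530 genes over 10 neurons. Their r values were not computed again without samples 1 or 4.

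The rest of the pathway divided into a constitutive core and genes seen in a few neurons. Of 27 further genes, 10 were at 1 FPKM or more in all neurons, 12 in 1 to 9 neurons and 5 in none. The core included Gapdh at 676 ± 270 FPKM, Pgam1 at 387 ± 202, Eno1 at 268 ± 152, Tpi1 at 250 ± 103 and Pkm at 180 ± 87.8 (mean ± SD, n = 10 neurons), with the pyruvate carrier Mpc1 at 73.2 ± 32.9 and the pyruvate dehydrogenase subunit Pdhb at 95.0 ± 54.2. Of these enzymes, Gapdh, Pgam1, Eno1, Tpi1 and Pkm were each lowest in sample 4. Sample 1, so low in Pgk1 and Ldhb, had Gapdh at 309, Tpi1 at 241 and Pgam1 at 177 FPKM, and the highest Pfkl, at 139 FPKM. Mpc1 and Mpc2 were lowest there, at 17.1 and 6.30 FPKM.

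Several isozymes of other tissues appeared in few neurons, while Pgk2 had no fragment in any neuron and Ldhc stayed at 0.332 FPKM or less. Hk2 and Hk3, hexokinases of muscle and of blood cells, were at 4.21 and 13.9 FPKM in sample 4 and at 0.0150 FPKM or less elsewhere. Sample 4 was also the neuron with the highest microglial markers, whose part was not tested. Pgam2 was at 14.8 FPKM in sample 6, and Pklr at 11.3 FPKM in sample 7. The glucose transporter of glia and vessels, Slc2a1, was at 52.4 FPKM in sample 3, 27.6 in sample 8, 15.2 in sample 6 and 5.40 in sample 4, and under 0.1 FPKM in the other 6. The neuronal transporter Slc2a3 was at 3.91 to 13.9 FPKM in samples 5 to 10 and 3.70 FPKM or less in samples 1 to 4. The lactate transporter Slc16a1 was at 15.0 FPKM in sample 8 alone. Of the fructose-2,6-bisphosphate enzymes, Pfkfb3 was at 29.5 FPKM in sample 1 and 7.59 in sample 4, and Pfkfb4 at 57.2 FPKM in sample 6.

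**Figure D4:**
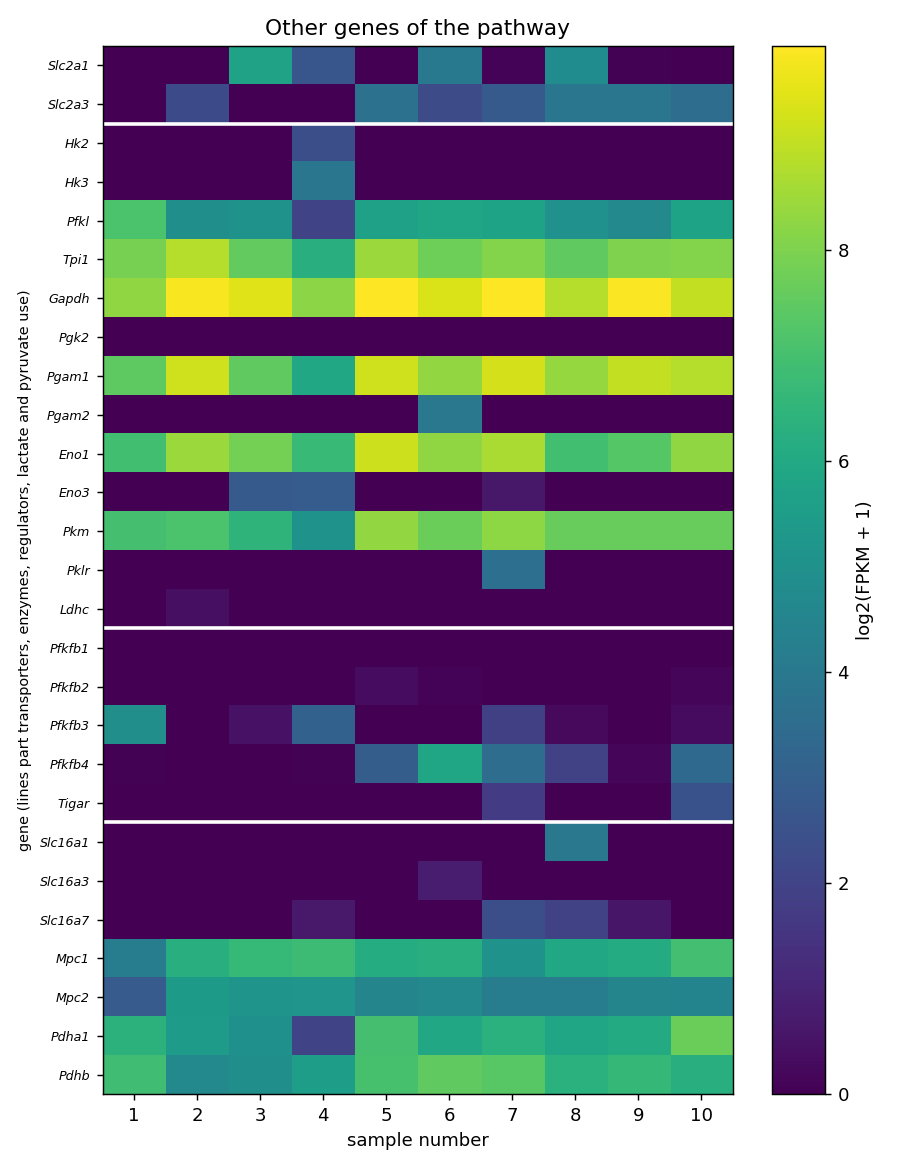
log2(FPKM + 1) of 27 further glycolysis genes, rows grouped as glucose transporters, enzymes, regulators, and lactate and pyruvate transport and use, in neurons 1 to 10. Gapdh, Pgam1, Eno1, Tpi1 and Pkm are bright in every column and dimmest in sample 4, while Hk2 and Hk3 are seen in sample 4 only.

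Between Type-1 and Unknown neurons (n = 4 and 5), no member had a mean log2(FPKM + 1) higher by 1 or more, where 22.6% of all genes did, and 1 member was lower, where 12.4% of all genes were. That member was Aldoc, with a difference of -1.59 and levels of 115 to 335 FPKM in Type-1 and 140 to 1193 FPKM in Unknown neurons. The ranges overlapped through sample 10. Without sample 4 the Aldoc difference was -1.36, and within samples 5 to 10 it was -0.81. Without sample 4, Hk1 (2.07), Eno2 (1.35) and Pfkp (1.15) came out higher in the remaining Type-1 neurons. Thus 3 of 10 members were higher by 1 or more, and the share of all genes was not computed without sample 4. Both without sample 4 and within samples 5 to 10, all Type-1 neurons were Dbx1-derived and all Unknown neurons CD-1. Type cannot be told apart from line there. The part of glial markers and mitochondrial fragments, given by line below, was not tested. Of the 27 further genes 3 were higher (Pfkfb3, Pfkfb4 and Pdhb) and none was lower. All 3 were among the 19 further genes with a mean of at least 1 FPKM. The median difference of the 10 members was -0.24, and that of all genes 0.17.

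Between Dbx1-derived and CD-1 neurons (n = 4 and 6), 5 members were higher by 1 or more, where 28.2% of all genes were, and 3 were lower, where 16.7% were. Hk1 was higher by 2.72, Pfkp by 2.45, Gpi1 by 1.95, Eno2 by 1.66 and Pfkm by 1.39, and Ldhb, Pgk1 and Aldoc had differences of -1.96, -1.74 and -1.01. None of the 10 had ranges apart, and the share of all genes with ranges apart by line was not computed. Glial markers and mitochondrial fragments moved with the line: the astrocyte list was at 0.80 to 2.13 in samples 5, 6 and 7 and 3.13 in sample 1, against 3.16 to 5.41 in the CD-1 samples 2, 3, 4 and 8 and 1.56 and 2.36 in samples 9 and 10. The microglial list was at 0.15 to 2.81 in the Dbx1-derived neurons and at 3.27 to 9.58 in the CD-1 neurons other than sample 9 (0.10). Mitochondrial fragments were 0.219% to 1.25% of the library in the Dbx1-derived neurons and 5.05% to 9.85% in the CD-1 neurons other than sample 10 (0.347%). Their part in the differences was not tested. Within samples 5 to 10, 3 Dbx1-derived neurons against 3 CD-1 neurons, no member differed by 1 in either direction: Hk1 was at 0.95, Aldoc at -0.81 and Ldhb at 0.12, the last with its sign turned. Without sample 1 no member was lower by 1 or more, and without sample 4 the Pfkm difference was 0.44. The shares of all genes were not computed for these subsets. Within samples 5 to 10 the line cannot be told apart from the type, since all 3 Dbx1-derived neurons were Type-1 and all 3 CD-1 neurons Unknown. Of the 27 further genes 5 were higher and 2 lower, all of them among the 19 with a mean of at least 1 FPKM. Only Pdhb of these had ranges apart, at 116 to 182 FPKM in Dbx1-derived and 24.3 to 96.8 FPKM in CD-1 neurons.

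Between neurons of P2 to P3 and of P0 (n = 5 and 4), 1 member was higher by 1 or more, where 17.5% of all genes were, and 3 were lower, where 19.1% were. Ldhb was higher by 2.09, and Pfkm, Gpi1 and Pfkp had differences of -1.60, -1.53 and -1.53. Every range overlapped. The Ldhb difference came with the P0 sample 1, without which no member was higher by 1 or more. Without sample 4, Ldhb (2.15) and Pgk1 (1.09) were higher and Gpi1 (-1.02) was the 1 member lower. Within samples 5 to 10 Hk1 (1.27) was higher and no member lower. The shares of all genes were not computed for these subsets. Finally, no member had ranges apart between samples 1 to 4 and samples 5 to 10, where 4.36% of all genes were higher and 0.394% lower in samples 5 to 10.

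The listed copies of members received some of their fragments. Of 12 genes named as copies, 6 had any fragment. Pgk1-rs7 (chr12:10898986-10900240, minus strand), a processed pseudogene, matched Pgk1 at all 1250 aligned coding bases, so that their reads cannot be told apart within them. It took 12.1% to 15.8% of the summed Pgk1 and Pgk1-rs7 fragments in samples 2 to 10, and 19.5% (8.82% to 34.9%) of the 41 in sample 1. The level of Pgk1 is uncertain, by an amount that depends on how fragments matching both were counted; both were low in sample 1. Gpi-ps took between 0.147% and 0.637% of the summed Gpi1 fragments, and Aldoart2 had 634 fragments in sample 10 and at most 1 in any other neuron.

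The Ldhb copy behaved otherwise. Ldhb-ps (chr19:21937380-21938381, plus strand), a processed pseudogene, is 98.0% identical to the Ldhb coding sequence, with 20 differing bases in 1002. The 90 bases with the most differences are printed because they are where reads of the 2 genes can best be told apart, against identical runs of up to 148 bases elsewhere, again 5′ to 3′ with the differing bases in capitals.
Ldhb: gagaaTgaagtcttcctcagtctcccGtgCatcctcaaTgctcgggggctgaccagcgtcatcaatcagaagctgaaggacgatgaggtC
Ldhb-ps: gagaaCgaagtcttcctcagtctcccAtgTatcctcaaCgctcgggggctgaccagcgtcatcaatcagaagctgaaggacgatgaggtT

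Ldhb-ps took 0.324%, 0.293% and 0.245% of the summed Ldhb and Ldhb-ps fragments in samples 5, 6 and 7, the Dbx1-derived Type-1 neurons. In the CD-1 samples 2, 3, 4, 8, 9 and 10 it took 4.89%, 8.60%, 1.99%, 6.36%, 4.66% and 5.92%. The lowest CD-1 interval, 1.79% to 2.20% in sample 4, lay above the highest interval of the 3 Dbx1-derived Type-1 neurons, 0.244% to 0.421%. Sample 1, the remaining Dbx1-derived neuron, had 4 of 68 fragments, or 5.88% (1.63% to 14.4%), which overlapped the CD-1 values and not those of samples 5 to 7. A spill of fragments from other libraries into sample 1 was not tested. Where the copy took most, in sample 3, it had 9.41 fragments per 100 of Ldhb.

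**Figure D5:**
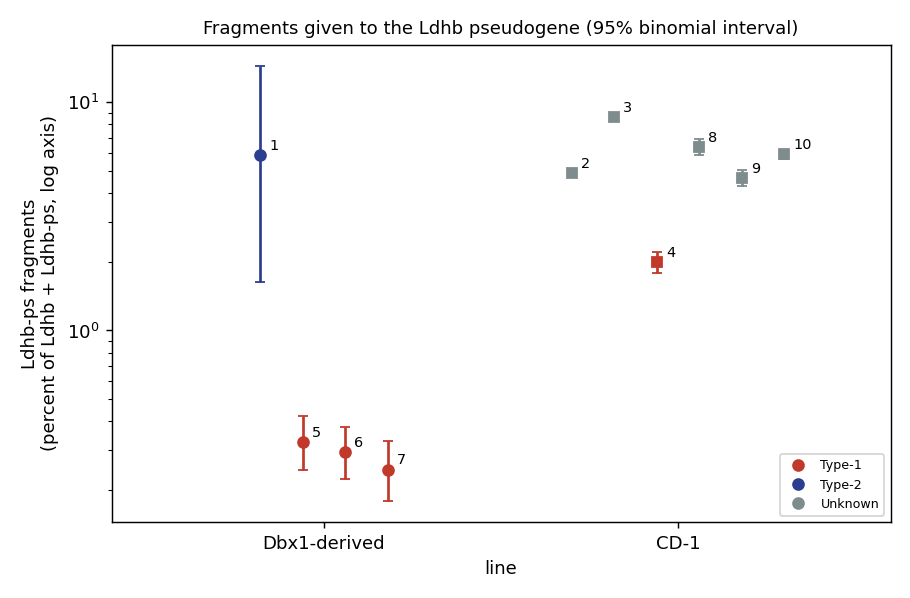
Fragments given to the pseudogene Ldhb-ps, in percent of Ldhb and Ldhb-ps together on a log axis, with exact 95% binomial intervals, for the Dbx1-derived and CD-1 neurons. Samples 5, 6 and 7 lie between 0.245% and 0.324%, the 6 CD-1 neurons between 1.99% and 8.60%, and sample 1 at 5.88% with a wide interval.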

How the data were processed

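RNA of 10 single neurons was converted to cDNA with SMART-Seq v4 and sequenced as paired 150-base reads, 1 library per neuron. The authors trimmed the reads, aligned them to GRCm38 with STAR 2.7.7a (quality control with FastQC 0.11.8, per the submitters' processing notes) and deposited raw fragment counts per gene from featureCounts, which are not normalized. They also deposited gene lengths and FPKM values, in which a count is divided by gene length in kilobases and by the library's fragments on genes in units of 1000000. How multiply mapped fragments and strand were treated is not given in the sources used here.

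From these files each member's FPKM was taken per neuron, and the mean of log2(FPKM + 1) was compared between groups taken from the labels, a difference of 1 counting as past the fold, over the 12955 genes with a mean of at least 1 FPKM. Shares of an isozyme pair use FPKM, with exact 95% binomial intervals of the fragments. Where a count is 0, 3 counts are the limit it allows, or 0.0819 to 0.140 per 1000000 fragments. Since each sample is 1 neuron and no animal is named, the comparisons are descriptions with no test or p-value. Correlations are Pearson's r and Spearman's rho over 10 neurons, 52 in all with marker lists.

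The named genes were the members, a list of 27 further glycolysis genes (other genes of the list are not reported here), the 3 genes with the highest r for each of Aldoa, Aldoc, Ldha and Ldhb, and copies that carry a member's name. Members and lists were chosen with earlier results of these data known. The alternatives were TPM, median-of-ratios size factors, totals without mitochondrial genes, thinning to the smallest total, setting counts under 0.1% of the highest library's to 0, a pseudocount of 0.1, other backgrounds, and leaving out each neuron; samples 5 to 10 alone for the relations to marker lists was added after seeing the data. Transcripts and positions came from GENCODE M21 on GRCm38, an earlier annotation than the Ensembl 102 used by the authors, and GENCODE M21 lists a further gene named Aldoa at chr7:126800790-126809108. Ldhb-ps and Gpi-ps were matched through RefSeq synonyms (GRCm38.p6). The steps across all genes were run on simulated libraries with planted changes and planted like genes. That run checks the code and does not measure how the steps perform on these neurons. Biopython 1.88, Matplotlib 3.10.9, SciPy 1.17.1, pandas 2.3.3 and NumPy 2.4.6 were run under Python 3.11.15.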

Additional observations from a re-analysis of the deposited data

Results flagged for a closer look

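In 52 groups of values (10 members as log2(FPKM + 1) and 3 shares, each in the Type-1, Unknown, Dbx1-derived and CD-1 neurons), 7 had a neuron whose distance to its nearest neighbour took up more of the group's range than Dixon's 95% limit allows. Chance gives about 1 in 20 for independent groups. These groups share neurons and libraries, so the 7 flags are a description and cannot be weighed against that rate. Sample 4 accounted for 4 of them. Its Hk1 was at 0.42 against 4.97 to 5.66 in the other Type-1 neurons, and its Pfkm at 0.17 against 6.18 to 6.77. Among CD-1 neurons its Pfkm, 0.17, stood against 5.06 to 6.63, and its Aldoa, 6.14, against 8.07 to 9.09. Sample 1 had Ldhb at 1.54 against 8.21 to 8.86 in the other Dbx1-derived neurons. Sample 2 had Gpi1 at 5.32 against 6.67 to 6.99 in the other Unknown neurons. Sample 10 had an Aldoc share of 24.1% against 58.4% to 78.3% in the other CD-1 neurons.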

How the results depend on the processing

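The mean log2(FPKM + 1) of each member moved by less than its SD over neurons in 157 of 160 alternatives. TPM raised Aldoa to 9.53, Aldoc to 9.61 and Ldha to 8.70, as TPM rescales every gene of a library alike. Without 1 neuron the means were 3.56 to 4.18 for Hk1, 6.62 to 7.25 for Gpi1, 5.31 to 6.04 for Pfkm, 4.82 to 5.69 for Pfkp, 8.19 to 8.53 for Aldoa, 8.16 to 8.53 for Aldoc, 6.50 to 7.35 for Pgk1, 6.41 to 6.79 for Eno2, 7.29 to 7.65 for Ldha and 7.86 to 8.73 for Ldhb. With fragments in place of FPKM, Ldhb exceeded Ldha in 4 neurons and Pfkp exceeded Pfkm in 9; without 1 neuron the counts over 50% were 5 to 6 for Aldoc, 6 to 7 for Ldhb and 4 to 5 for Pfkp. The r of Aldoc share with the astrocyte list was 0.78 to 0.92 without 1 neuron.

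For Type-1 minus Unknown, 1 member was higher with TPM and 3 without sample 4; 2 were lower with size factors, with totals that leave out mitochondrial genes, with low counts set to 0 and with a pseudocount of 0.1, and 0 in samples 5 to 10. Without 1 neuron, 0 to 3 were higher and 1 to 2 lower. For Dbx1-derived minus CD-1, 0 were higher and 0 lower in samples 5 to 10, where Ldhb was at 0.12 (reversed), and 4 to 5 were higher and 0 to 3 lower without 1 neuron. For P2 to P3 minus P0, 2 were higher with a pseudocount of 0.1 and without sample 4; 0 were lower in samples 5 to 10 and 1 without sample 4; without 1 neuron 0 to 2 were higher and 1 to 5 lower. The r of Pfkp share with the neuronal list turned from -0.62 to 0.20 in samples 5 to 10. The percentages of all genes past 1 depend on the background: over all genes with a count they were 14.1 (higher) and 7.62 (lower) for Type-1 minus Unknown, 17.5 and 10.2 for Dbx1-derived minus CD-1, and 10.7 and 11.8 for P2 to P3 minus P0. These percentages were not computed for subsets of neurons or for other normalizations. The causes were not tested. No paired analysis was possible because the groups share no replicate numbers.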
